A study of Mus musculus with 6 samples.

Results

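Of the genes that start within the 5 Mb of mouse chromosome 7 that end at 120 Mb, 7 are described here: Smg1, Itpripl2, Coq7, B230311B06Rik, Tmc5, 1700016B15Rik and Gprc5b, in the order in which they follow each other along the chromosome. They are 7 of the 87 genes of that window, and of the 55471 genes of the whole table. The window was picked on the comparison that follows, as a stretch where an unusually large share of the tested genes differed between genotypes, and the 7 genes were picked from those that differed. Their values are therefore a description and carry no test. Positions are those of GENCODE M21 on GRCm38, the build to which the reads were aligned.

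RNA was sequenced in bulk from YFP-positive, propidium iodide-negative cells that were sorted by FACS at postnatal day 35 from the subgranular zone (SGZ), the neurogenic niche of the dentate gyrus. The 3xTg group, 3xTg-AD;Nestin-CreERT2;ROSA26-EYFP, with 3 libraries, carries human mutant transgenes, APP and tau among them. The control was NTG;Nestin-CreERT2;ROSA26-EYFP, with 3 libraries and no such transgenes. Both groups carried the Cre driver and the reporter, and both have the strain label B6129SF2/J. Both received tamoxifen daily on consecutive days, with the last dose 10 days before the sort. Cre was driven by a Nestin promoter and enhancer, so that the sort took cells with a history of Nestin activity, labelled neural stem and progenitor cells (NSPC). The NTG mice were kept as a colony of their own, so that genotype and colony cannot be told apart in any difference below. Values are read counts that the authors normalized with DESeq2, here called normalized counts. In this bulk RNA, fewer cells of a type and less RNA per cell cannot be told apart.

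The libraries held 53063475 to 81800375 assigned reads in 3xTg and 32731794 to 42576455 in NTG. Nes, Sox2 and Hopx, which mark neural stem and progenitor cells, were present in all 6 libraries, with 741, 913 and 823 normalized counts of Nes in 3xTg and 844, 982 and 951 in NTG. Sox2 had 11186, 9608 and 7311 in 3xTg and 11930, 11552 and 13471 in NTG, and Hopx had 12318, 12197 and 9816 in 3xTg and 13573, 13578 and 17429 in NTG. The groups overlapped for Nes and not for Sox2 and Hopx, whose log2 fold changes of -0.41 and -0.37 were not called (limma adjusted p = 0.149 for both). Mouse App and Mapt, counterparts of human transgenes, had log2 fold changes of -0.02 and -0.03. The human transgenes have no rows in the table, so these values do not check the genotype. The 11 neural stem and progenitor markers summed to between 446222 and 531835 normalized counts in 3xTg and between 434796 and 489599 in NTG. Their log2 fold changes ran from -0.52 to 0.58, with none called by limma and 5 at an unadjusted p under 0.05. Over the whole genome 4378 of the 18664 tested genes had an unadjusted limma p under 0.05. Markers of other cells were also measured. The 5 oligodendrocyte markers summed to between 463709 and 485327 normalized counts in 3xTg and between 211434 and 479601 in NTG, and none of them was called by limma. The 5 endothelial markers summed to between 2059 and 3665 in 3xTg and between 4680 and 5866 in NTG, and the 4 mural markers to between 13275 and 17592 in 3xTg and between 19708 and 24230 in NTG. By limma 2 of the 5 endothelial and 1 of the 4 mural markers were called, all lower in 3xTg. All 5 and all 4 had an unadjusted limma p under 0.05, with median log2 fold changes of -0.94 and -0.93. The part of such other cells in the differences below was not tested. The library 3xTg replicate 1 stood apart in its weight on the calls: without it the number of genes called over the whole genome was 963 higher and 1082 lower in 3xTg, against 210 higher and 312 lower with all 6 libraries.

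The window joins genes of unrelated roles. Smg1 encodes a PI3K-related kinase that phosphorylates UPF1 during nonsense-mediated decay, the pathway that removes transcripts with premature stop codons. Coq7 encodes a mitochondrial hydroxylase that acts near the end of coenzyme Q synthesis, and coenzyme Q carries electrons in the respiratory chain. Gprc5b encodes an orphan G protein-coupled receptor of the retinoic acid-inducible Gprc5 family, which is made in the nervous system by neural precursors and glia among other cells. Tmc5 belongs to the transmembrane channel-like family, best known for Tmc1 and Tmc2 in the mechanotransduction of hair cells. Itpripl2 is named for its similarity to a protein that binds the inositol trisphosphate receptor. B230311B06Rik is annotated as a long intergenic non-coding RNA, and 1700016B15Rik as TEC, a class for transcripts that still await experimental support.

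Promoter sequence from RefSeq (GRCm38.p6) was matched by symbol for 5 of the 7 genes. The 250 bases before the start of the transcript are shown for the 4 of those 5 with the largest differences between genotypes, each on its own strand from 5′ to 3′. They let the starts of genes that differ in opposite directions be set beside each other. Capitals mark matches on either strand to 3 motifs that do not overlap one another: GGGCGG or CCGCCC (the GC box), CCAAT or ATTGG (the CCAAT box) and TATAAA or TTTATA (the TATA box). B230311B06Rik lies at chr7:118592035-118592284 on the plus strand for the first of its 2 RefSeq starts, Itpripl2 at chr7:118491976-118492225, Gprc5b at chr7:118995212-118995461 and Smg1 at chr7:118243638-118243887, the last 3 on the minus strand.
B230311B06Rik: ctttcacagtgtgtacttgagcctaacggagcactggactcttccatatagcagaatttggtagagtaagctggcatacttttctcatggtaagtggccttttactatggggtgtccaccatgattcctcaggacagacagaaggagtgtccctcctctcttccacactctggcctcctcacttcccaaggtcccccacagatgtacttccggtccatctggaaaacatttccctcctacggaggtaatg
Itpripl2: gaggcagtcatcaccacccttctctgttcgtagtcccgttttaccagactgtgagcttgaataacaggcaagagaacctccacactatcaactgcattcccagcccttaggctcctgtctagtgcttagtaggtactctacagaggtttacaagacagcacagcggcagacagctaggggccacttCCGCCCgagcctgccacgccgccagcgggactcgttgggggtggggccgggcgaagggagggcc
Gprc5b: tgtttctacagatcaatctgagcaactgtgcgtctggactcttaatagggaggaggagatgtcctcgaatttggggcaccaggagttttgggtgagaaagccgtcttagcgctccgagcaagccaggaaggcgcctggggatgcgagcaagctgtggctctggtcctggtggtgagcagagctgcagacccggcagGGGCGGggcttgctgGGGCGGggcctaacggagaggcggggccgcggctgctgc
Smg1: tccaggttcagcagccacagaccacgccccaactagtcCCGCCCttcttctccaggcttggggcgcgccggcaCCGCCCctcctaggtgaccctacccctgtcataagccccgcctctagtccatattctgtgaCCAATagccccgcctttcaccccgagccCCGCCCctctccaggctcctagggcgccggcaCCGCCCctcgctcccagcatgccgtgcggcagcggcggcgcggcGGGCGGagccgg

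The promoters differed in their content of CpG, the dinucleotide that is dense at the starts of many widely expressed genes. The stretch before B230311B06Rik held 3 CpG and none of the 3 motifs, and that of its second start held 6 CpG and again no motif. Itpripl2 had 11 CpG and 1 GC box, Gprc5b had 14 CpG and 2 GC boxes, and Smg1 had 23 CpG, 5 GC boxes and 1 CCAAT box. Coq7, whose stretch is not printed, had 13 CpG and 2 CCAAT boxes. Over all 32851 promoters of that length the median was 6 CpG, and a GC box was present in 32.7%, a CCAAT box in 33.8% and a TATA box in 12.4%. Genes higher and genes lower in 3xTg thus both include promoters above the median in CpG. A match is a description of letters and not of a bound site.

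All 7 genes passed the filter of a mean of at least 10 normalized counts, which 41 of the 87 genes of the window passed, and all 7 were called, at a limma adjusted p under 0.05 and a log2 fold change over 0.5 in size. Over the whole genome 2.80% of the 18664 tested genes were called, 1.13% as higher and 1.67% as lower in 3xTg. Among the 7 genes 4 were higher (Gprc5b, Smg1, Tmc5 and 1700016B15Rik) and 3 were lower (B230311B06Rik, Itpripl2 and Coq7). In all 7 the 3xTg and NTG libraries did not overlap, which was so for 27.7% of all tested genes. Because the genes were chosen on this contrast, nothing is read from these counts.

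The only member with a very high level was Gprc5b (chromosome 7, 118972047 to 118995211, minus strand). It had 28680, 19585 and 22066 normalized counts in the 3 3xTg libraries, against 6346, 7465 and 6707 in the 3 NTG libraries. The lowest 3xTg library was 2.62 times the highest NTG library, and the 3xTg libraries varied more among themselves (coefficient of variation 20.1%) than the NTG libraries (8.35%). The means were 23444 ± 4701 in 3xTg and 6839 ± 571 in NTG (SD, n = 3 each), a log2 fold change of 1.76 with a standard error of 0.14. Per kilobase of exon, the level of Gprc5b was 5063 in 3xTg and 1477 in NTG, the 98.4th and the 91.6th percentile of all tested genes.

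Smg1 (118131308 to 118243670, minus strand) lies at the other end of the stretch. Its libraries held 2145, 2480 and 1924 normalized counts in 3xTg, against 1112, 1286 and 1009 in NTG. All 3xTg libraries lay well above all NTG libraries. Its mean was 2183 ± 280 in 3xTg and 1135 ± 140 in NTG (SD, n = 3 each), and the log2 fold change was 0.94 with a standard error of 0.14.

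Tmc5 (118597297 to 118675086, plus strand) was a low gene in both groups. It had 147, 128 and 114 normalized counts in 3xTg, against 49.1, 57.5 and 63.6 in NTG, with means of 130 ± 16.3 in 3xTg and 56.7 ± 7.25 in NTG (SD, n = 3 each). These values rest on 537 reads summed over the 3xTg libraries and 126 over the NTG libraries. The log2 fold change was 1.18 with a standard error of 0.23. Leaving out any of 3xTg replicates 2 and 3 and NTG replicates 1 and 2 took Tmc5 out of the calls.

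1700016B15Rik (118740449 to 118741181, minus strand) had the lowest normalized counts of the 7. Per kilobase of exon it stood at 56.7 in 3xTg, above Itpripl2 (25.9) and Tmc5 (29.0), and at 12.2 in NTG. It had 48.0, 37.1 and 39.4 normalized counts in 3xTg, against 8.19, 12.6 and 5.92 in NTG. The reads behind these values were 51, 66 and 53 in 3xTg and 7, 9 and 4 in NTG, sums of 170 (exact 95% Poisson interval 145 to 198) and 20 (12.2 to 30.9). Such intervals cover counting error only. The log2 fold change was 2.15 with a standard error of 0.38, the largest error among the 7. The call was lost without 3xTg replicate 2, 3xTg replicate 3 or NTG replicate 1.

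B230311B06Rik (118592328 to 118596838, plus strand) had the largest difference of the 7. The 3xTg libraries held 75.4, 66.9 and 64.7 normalized counts, against 514, 481 and 728 in NTG. The lowest NTG library was 6.38 times the highest 3xTg library. The mean of 69.0 ± 5.64 in 3xTg was 0.120 times that of 574 ± 134 in NTG (SD, n = 3 each), a log2 fold change of -3.02 with a standard error of 0.21. It ranked at place 58 among all tested genes by the size of the log2 fold change. On the scale of level per kilobase of exon it stood at 85.7 in 3xTg and 713 in NTG, the 41.0th and the 82.2nd percentile.

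Itpripl2 (118485111 to 118491975, minus strand) was lower in each 3xTg library. It had 195, 175 and 164 normalized counts in 3xTg, against 475, 560 and 383 in NTG. The means were 178 ± 15.9 in 3xTg and 473 ± 88.3 in NTG (SD, n = 3 each), and the log2 fold change was -1.39 with a standard error of 0.19.

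Coq7 (118509659 to 118533356, minus strand) was the member closest to the threshold. Its libraries held 1318, 1151 and 1299 normalized counts in 3xTg, against 1712, 1697 and 2047 in NTG. The groups came near each other, the lowest NTG library being 1.29 times the highest 3xTg library. The means were 1256 ± 91.2 in 3xTg and 1819 ± 198 in NTG (SD, n = 3 each), and the log2 fold change was -0.53 with a standard error of 0.12. Just inside the threshold, Coq7 had a limma adjusted p of 0.0479. The genes of the window not called that had the lowest limma adjusted p were the ribosomal protein gene Rps15a, with 0.104 and a log2 fold change of -0.44, and Knop1, with 0.116 and 0.38, which were outside both thresholds. The call of Coq7 was lost on leaving out any library but 3xTg replicate 1, and also with no filter on low values and with a filter at a mean of 50.

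**Figure D1:**
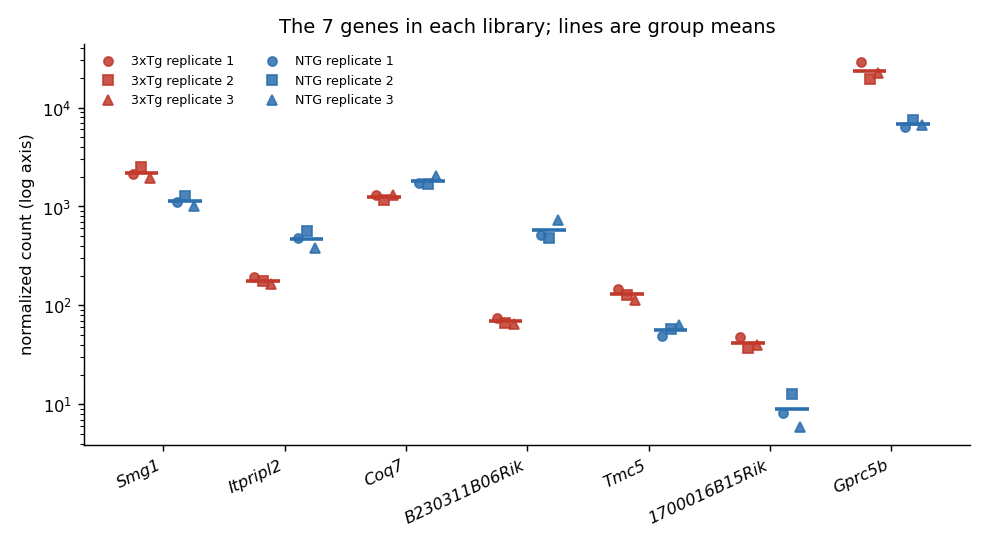
Normalized counts (log axis) of the 7 genes, in chromosomal order, with 3xTg libraries in red to the left of NTG libraries in blue, replicates 1 to 3 as circles, squares and triangles, and lines at the group means. Within every gene the 2 groups do not overlap, with the widest gap in B230311B06Rik (64.7 to 75.4 in 3xTg, 481 to 728 in NTG) and the narrowest in Coq7 (1151 to 1318 in 3xTg, 1697 to 2047 in NTG).

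B230311B06Rik and Tmc5 are neighbours on the same strand, with 458 bases between the end of the first and the start of the second, and they differed in opposite directions. The normalized count of B230311B06Rik over that of Tmc5 was 0.513, 0.524 and 0.565 in the 3xTg libraries, against 10.5, 8.37 and 11.4 in the NTG libraries. The gene of the pair with more normalized counts was therefore Tmc5 in each 3xTg library and B230311B06Rik in each NTG library. These are not levels per length, since the exons of B230311B06Rik cover 805 bases and those of Tmc5 cover 4470. Per kilobase of exon, B230311B06Rik had the higher mean level in both groups. It stood at 85.7 against 29.0 for Tmc5 in 3xTg, and at 713 against 12.7 in NTG.

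Some tested neighbours of the 7 genes were not called. Itpripl2 and Coq7, both lower in 3xTg, lie 17683 bases apart on the minus strand. Beyond Coq7 at 2484 bases lies Tmc7, another gene of the channel-like family, with 3810, 3601 and 3808 normalized counts in 3xTg, against 4840, 4503 and 4184 in NTG, a log2 fold change of -0.27 that was not called. On the opposite strand from B230311B06Rik, the span of Tmc7 stops 7591 bases before it. Arl6ip1, at 1645 bases from Smg1 on the same strand, had a log2 fold change of -0.11 and overlapping groups. After Tmc5 follows Gde1 with 0.10, at 13458 bases, and after 1700016B15Rik follows Gm44550 with 0.33, at 43961 bases. The next tested gene beyond Gprc5b is Acsm5, at 524251 bases, with a log2 fold change of -0.05.

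Gprc5b and 1700016B15Rik share exonic bases with a gene on the other strand. The library kit (SMART-Seq V4 with Nextera XT) does not mark the strand, so that reads from such shared bases cannot be told apart. For Gprc5b these are 606 bases, 13.1% of its exons, shared with Iqck, whose mean was 360 in 3xTg and 344 in NTG. For 1700016B15Rik they are 327 bases, 44.6% of its exons, shared with Vps35l, a gene of the endosomal Retriever complex. Vps35l spans the whole of 1700016B15Rik and had means of 5443 in 3xTg and 5585 in NTG, a log2 fold change of -0.04. The part of shared reads in the values of Gprc5b and 1700016B15Rik was not tested.

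Apart from the 7 genes, 3 others of the window were called. Gm44763, annotated as antisense to Iqck, lies 2360 bases past the 3′ end of Gprc5b on the strand of Gprc5b. It had 252, 213 and 222 normalized counts in 3xTg, against 80.7, 84.1 and 93.2 in NTG, a log2 fold change of 1.40. As a percentage of Gprc5b in the same library, Gm44763 ranged between 0.877 and 1.09 in 3xTg and between 1.13 and 1.39 in NTG, so that the groups lay close but did not overlap.

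Syt17, a synaptotagmin that lies between Smg1 and Itpripl2, had 1274, 1667 and 1356 normalized counts in 3xTg, against 948, 799 and 991 in NTG, a log2 fold change of 0.65. Gm45153, within the span of the xylosyltransferase gene Xylt1, had 830, 651 and 610 in 3xTg, against 1144, 1025 and 1177 in NTG, a log2 fold change of -0.69. The calls of Syt17 and Gm45153 were each lost without some of the libraries, and that of Gm44763 was not lost in any of the 16 alternatives. In those 16 alternatives B230311B06Rik, Gprc5b, Itpripl2 and Smg1 also stayed called, with log2 fold changes of -3.13 to -2.83 for B230311B06Rik, 1.61 to 1.88 for Gprc5b, -1.53 to -1.26 for Itpripl2 and 0.79 to 1.04 for Smg1.

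Of the 10 called genes of the window, 9 lay in 1 stretch of it, whose ends were drawn at called genes, so that its share of calls depends on that choice. From Smg1 to Gprc5b, a stretch of 864 kb, 16 genes were tested and 9 were called, of which 6 were higher and 3 lower in 3xTg. The 7 genes of that stretch that were not called were Tmc7, Gde1, Ccp110, Vps35l, Gm44550, Knop1 and Iqck. The 3 lower genes (Itpripl2, Coq7 and B230311B06Rik) followed each other with Tmc7 alone among them, and the called genes before and after them in the stretch were higher. Of the 17 tested genes of the window before Smg1 1 was called (Gm45153). Of the 8 after Gprc5b none was called by limma, with 2 at an unadjusted p under 0.05 and 1 (Eri2) called by DESeq2. Since the stretch was drawn to end at the last called gene, the lack of limma calls after it was fixed in advance. Over the whole window 10 of 41 tested genes were called (24.4%), and the median log2 fold change was 0.12, against 0.12 over the 84 tested genes of the 5 Mb on each side and 0.01 over all tested genes. Among the 348 stretches of 5 Mb in the genome with at least 20 tested genes the median share called was 2%, and the next highest was 18.2%. The share of the window is what it was picked on.

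**Figure D2:**
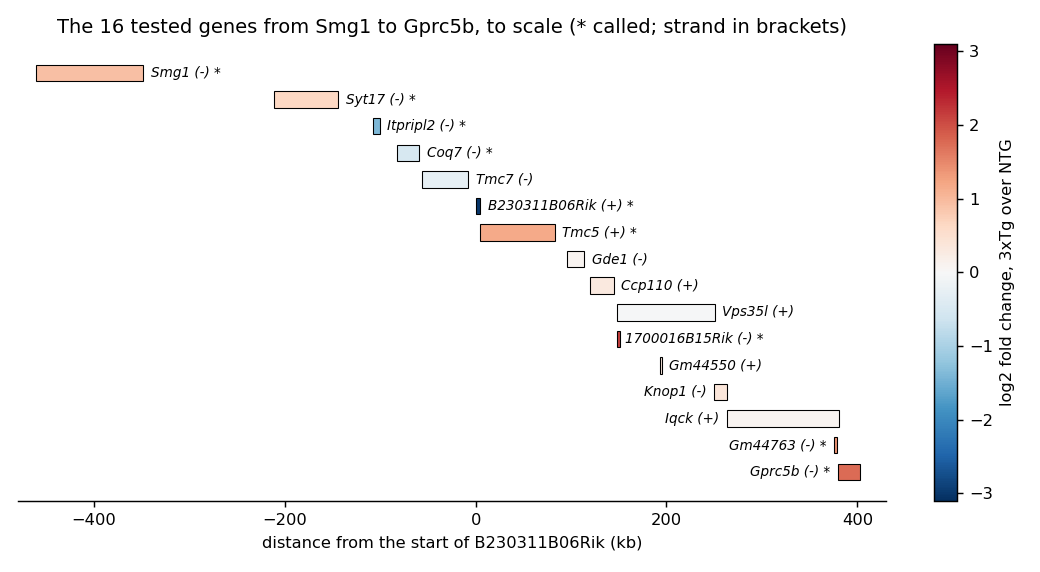
Map of the 16 tested genes from Smg1 to Gprc5b, drawn to scale as the distance in kb from the start of B230311B06Rik (x axis), 1 gene per line, coloured by log2 fold change (red, higher in 3xTg; blue, lower in 3xTg), with the strand in brackets and an asterisk for a called gene. Genes under 3 kb are drawn 3 kb wide. The 3 lower genes, from Itpripl2 to B230311B06Rik, lie together between higher genes on both sides.

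The 5 Mb on each side of the window hold none of the genes on which it was picked, and could be tested. Since the window was picked for its high share of calls, nothing is read from a lower share in its flanks. In the 5 Mb from 110 Mb, which lie before the window, 38 genes were tested and none was called by limma or by edgeR, with 10 at an unadjusted p under 0.05 and 2 called by DESeq2 (Galnt18 and Eif4g2). In the 5 Mb from 120 Mb, which lie after it, 46 genes were tested and 1 was called, Dctn5, which encodes a subunit of dynactin, the partner of the dynein motor. Dctn5 had 1792, 1910 and 2040 normalized counts in 3xTg, against 3429, 3147 and 3199 in NTG. Its groups did not overlap, and the log2 fold change was -0.77 with a standard error of 0.10 (limma adjusted p = 0.00394). It stayed called in all 16 alternatives, with limma, edgeR or DESeq2 adjusted p of at most 0.0333. The 2 flanks together had 1 call among 84 tested genes (1.19%), against 2.80% over all tested genes. Of the 84, 19 had an unadjusted limma p under 0.05, against 4378 of the 18664 tested genes of the genome. On chromosome 7 outside the window 60 of 1409 tested genes were called (4.26%). Without 3xTg replicate 1 the number of calls in the flanks was 9, of which 2 were higher and 7 lower in 3xTg. Over the whole genome that setting called 963 genes higher and 1082 lower among 18685 tested genes.

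**Figure D3:**
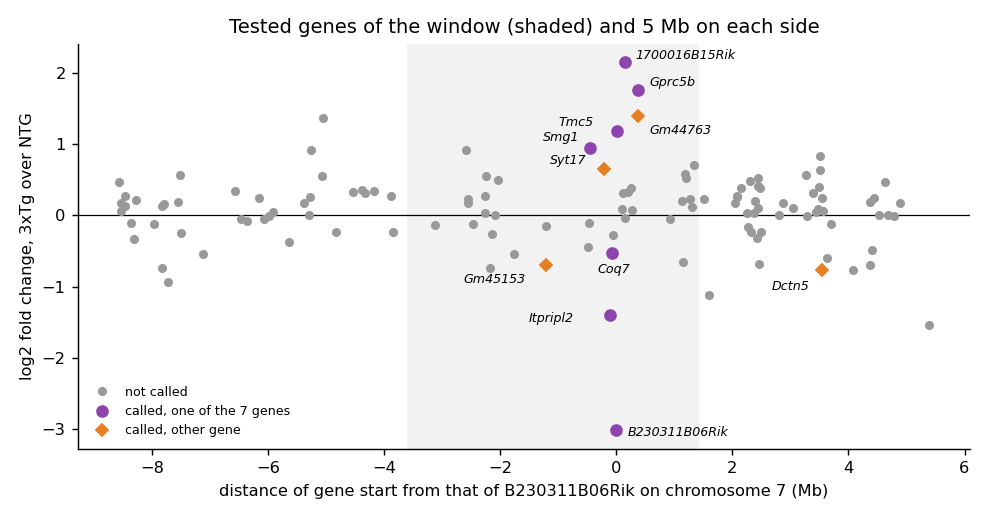
Log2 fold change (3xTg over NTG, y axis) of each tested gene of the window (shaded) and of 5 Mb on each side, by the distance of its start from that of B230311B06Rik in Mb (x axis), with the 7 genes as purple circles, other called genes as orange diamonds and genes not called in grey. The called genes gather close to B230311B06Rik, and Dctn5 (-0.77) is the 1 called gene outside the window.

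Genes that share a pathway or family with the 7 were read from the same fit. Their counts at an unadjusted limma p under 0.05 stand beside 4378 among the 18664 tested genes. Around Smg1, 17 other genes of nonsense-mediated decay were tested, of which none was higher and 1 was lower in 3xTg (Smg9), with a median log2 fold change of 0.13 beside 0.01 over all tested genes. Smg9 encodes a protein that binds the SMG1 kinase and restrains it, and it lies elsewhere on chromosome 7, outside the window and its flanks. It had 1427, 1228 and 1388 normalized counts in 3xTg, against 2285, 2474 and 3351 in NTG. The highest 3xTg library was far below the lowest NTG library. The fitted difference was -0.99 on the log2 scale, with a standard error of 0.15 (limma adjusted p = 0.00824). This call held in all 16 alternatives, with an adjusted p by limma, edgeR or DESeq2 of at most 0.0485. Over these alternatives the log2 fold change of Smg9 ran from -1.10 to -0.72, and it was smallest in size with the GC trend removed. Smg1 and Smg9 thus differed in opposite directions.

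RNAs known as substrates of the decay pathway, 8 in number, had a median log2 fold change of -0.09, and none was called by limma, edgeR or DESeq2, with 1 at an unadjusted p under 0.05. Snhg1, a snoRNA host gene, had 190, 235 and 300 normalized counts in 3xTg, against 152, 158 and 186 in NTG (log2 fold change 0.52, limma adjusted p = 0.180). Gas5, another snoRNA host, had a log2 fold change of 0.19. The 5 other PI3K-related kinases had values from -0.18 for Trrap to 0.42 for Atr, the kinase of the replication stress checkpoint, with none called by the 3 tools and 1 at an unadjusted p under 0.05.

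Around Coq7, none of the 13 other genes of coenzyme Q synthesis was called by limma or edgeR, 1 had an unadjusted p under 0.05 and was the 1 that DESeq2 called (Coq10b), and the median log2 fold change was -0.05. Coq10b, which encodes a chaperone-like binder of coenzyme Q, had 703, 1153 and 922 normalized counts in 3xTg, against 646, 581 and 615 in NTG (log2 fold change 0.56, limma adjusted p = 0.110). Pdss1, for the synthase of the isoprenoid tail, had a log2 fold change of 0.31.

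Of the Gprc5 receptors besides Gprc5b only Gprc5c passed the filter. Gprc5c had 1224, 552 and 725 normalized counts in 3xTg, against 1433, 1252 and 1658 in NTG, with 3xTg replicate 1 close to the NTG libraries. Its log2 fold change of -0.87, opposite in sign to that of Gprc5b, was not called (limma adjusted p = 0.0925), but it was called by DESeq2 and on leaving out 3xTg replicate 1. In the channel-like family the 3 other tested genes outside the window had values of -0.68 for Tmc4, -0.34 for Tmc6 and -0.31 for Tmc3, none called by the 3 tools and 1 at an unadjusted p under 0.05. Among the inositol trisphosphate receptors and their partners 5 were tested and none was called by the 3 tools, with 1 at an unadjusted p under 0.05. Itpr3 had 66.0, 17.4 and 43.9 normalized counts in 3xTg, against 94.8, 158 and 53.2 in NTG, so that its groups overlapped. Its log2 fold change of -1.30 was the largest in size on the pathway and family lists outside the window. Itpr1 had a log2 fold change of -0.35 and Itpripl1 of 0.34.

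**Figure D4:**
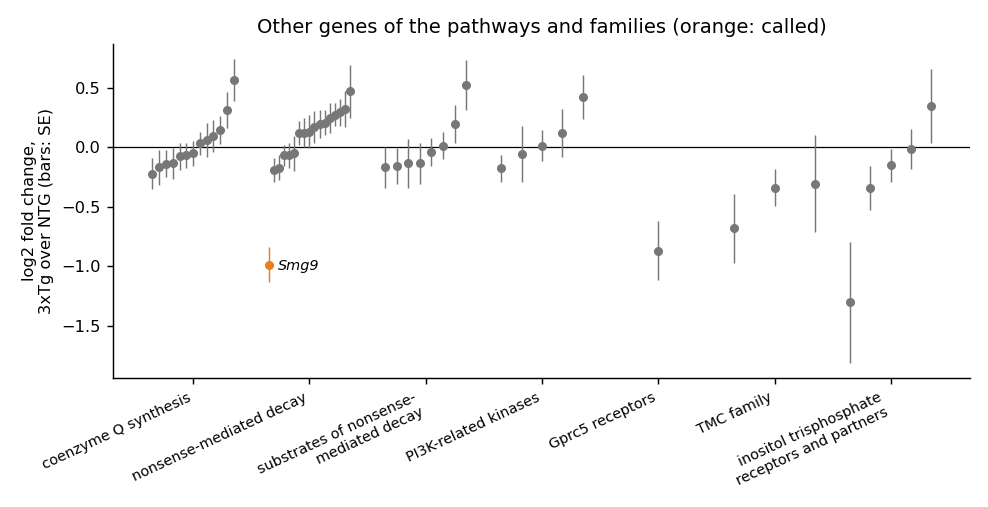
Log2 fold change (3xTg over NTG, y axis) with its standard error for each tested gene outside the window of the pathways and families of the 7 genes (x axis), called genes in orange. Smg9 (-0.99) is the 1 gene called. Itpr3 (-1.30), which was not called, lies further from 0, and the others lie nearer to 0 than Smg9.

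The genes whose pattern over the 6 libraries was most like that of each of the 7 were sought among 14526 tested genes outside the window with a mean of at least 50. Likeness was the root mean square difference between log2(normalized count + 1) values, each centred on its own mean, so that a small value means a close match in the size and direction of the differences. These values are a description over 6 libraries that all genes share. The measure depends on the size of the differences on which the 7 were picked, so nothing is read from the order of the 7 by likeness. The values were smallest for Coq7, the gene with the smallest difference, with Zfp395 at 0.0463 and Gm44103 at 0.0570. Smg1 was most like Lsm12 at 0.0770 and Cep128 at 0.0885. Itpripl2 was most like Timmdc1 at 0.115 and Cys1 at 0.146, and Tmc5 most like BC037039 and Kcnj14, both at 0.127. For Gprc5b the nearest were Nat8f5 at 0.178 and Mocs1 at 0.199, and for 1700016B15Rik they were Slitrk5 at 0.20 and Gm5089 at 0.268. B230311B06Rik was most like Ccl27a at 0.270, which had a mean of 110 in 3xTg and 632 in NTG.

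The log2 fold change of all tested genes varied with the GC content of their exons, with medians of 0.25, 0.13, 0.03, -0.09 and -0.20 over 5 equal bins of genes from low to high GC. Of the 7 genes, Smg1 (0.94) lies in bin 2, and Itpripl2 (-1.39), Tmc5 (1.18) and Coq7 (-0.53) lie in bin 3. B230311B06Rik (-3.02) and Gprc5b (1.76) lie in bin 4, and 1700016B15Rik (2.15) lies in bin 5. With the GC trend removed from each library all 7 stayed called. Because the 7 were picked on these differences, the part of GC content in them was not tested.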

How the data were processed

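All 6 libraries of 1 table were used. HISAT2 was used by the authors to align reads to GRCm38 (mm10). They counted reads per gene with featureCounts and normalized the counts with DESeq2, and the deposited signal values are these normalized counts. The deposited log2 fold changes, p-values and weights hold the authors' own comparison and were not used. Tool versions are not given in the sources used here, nor whether multiply aligned reads were kept. Divided by 1 factor per library, 100% of the values were whole within 0.01, so that reads were recovered.

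Genes with a mean of at least 10 (18664 of 55471) entered a limma 3.58.1 fit with a mean-variance trend in R 4.3.3, after taking log2 of the normalized count plus a pseudocount of 1. P-values were adjusted over all of these genes by Benjamini-Hochberg. Genes were called at an adjusted p under 0.05 and a log2 fold change over 0.5 in size, the thresholds of the study. Fold changes on this scale understate those of low genes. Recovered reads were tested with edgeR 4.0.16, which called 228 genes higher and 302 lower in 3xTg, and DESeq2 1.42.0. The limma, edgeR and DESeq2 steps were tested on simulated data. Exons were taken from GENCODE M21, which matched 55230 genes and not 241.

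Members and lists were chosen with earlier results of these data known. Named genes were, by a rule, the 7 genes, other called genes of the window and the 2 uncalled ones with the lowest adjusted p, nearest tested neighbours, genes called in the flanks, called genes of each list or else its 2 with the largest differences, the 2 most alike genes of each, and Nes, Sox2, Hopx, App and Mapt. Some items that the rule names are not reported here. Galnt18, Eif4g2 and Eri2, and list members beyond the first 2, were named after their values were seen. Of the 8 lists of marker genes, which cover neural stem and progenitor cells, mature neurons, astrocytes, oligodendrocytes, oligodendrocyte precursors, microglia, endothelial and mural cells, the called genes were Cspg4, P2ry12, Tie1, Cldn5 and Rgs5, all lower in 3xTg. The study describes its replicates as biological. Alternatives were the added count, the filter, TMM scaling, the test, the GC trend, a replicate block and leaving out each library. Tables used pandas 2.3.3, numpy 2.4.6 and scipy 1.17.1, and plots used matplotlib 3.10.9, under Python 3.11.15.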

Additional observations from a re-analysis of the deposited data

How the results depend on the processing

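The direction of all 7 genes was kept under each of the 16 alternatives that tested them (15 for 1700016B15Rik, which a filter at a mean of 50 removes). The 7 were picked on this contrast and their groups do not overlap. Leaving out a library could therefore not reverse a direction, and nothing is read from the kept directions. Of the 7 genes, 1700016B15Rik and Tmc5 rest on the fewest reads in NTG (20 and 126 in all). With a filter at a mean of 50, 193 genes were lower in 3xTg over the genome, against 312. DESeq2 called 604 genes higher and 733 lower, 5 in the flanks and 3 of the pathway and family lists, against 210, 312, 1 and 1 with limma. Leaving out each library gave 46 to 963 genes higher, 112 to 1082 lower, 1 to 9 in the flanks, 1 to 3 of the lists, 4 to 7 of the 7 genes and 5 to 11 of the window. The calls within the window were fewest (5) without 3xTg replicate 2, 3xTg replicate 3 or NTG replicate 1, and without each of these 4 of the 7 genes stayed called. With a replicate block 2 genes of the lists were called (Smg9 and Gprc5c), 302 genes were higher and 450 lower over the genome, and the calls among the 7 genes (7) and in the window (10) did not change in number. Libraries with the same number correlated by 0.06, 0.20 and 0.04 after group means were removed, which does not establish that equal numbers mark pairs, and 3xTg replicate 1 correlated best with NTG replicate 3 (0.11). With the GC trend removed together with the replicate block, Tmc5 was lost. The causes of these changes were not tested.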
